A study of Homo sapiens with 4 samples.

Results

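The AP-1 transcription factor genes were followed in U937 cells treated with shikonin or with its solvent. The family was taken as 10 genes chosen by name, namely FOS, FOSB, FOSL1, FOSL2, JUN, JUNB, JUND, BATF, BATF3 and JDP2, and every probe set whose annotated symbol was exactly that of a member was read. This gave 21 of the 54675 probe sets on the array, 10 of 19775 genes with a probe set of their own, a probe set being a group of short oligonucleotides that together read a transcript. U937 is an established human line derived from a lymphoma with monocytic features, and shikonin is a red naphthoquinone from gromwell roots. All 4 samples were U937 total RNA, each on its own array: 2 samples had received DMSO, the solvent control, and 2 had received shikonin at 100 nM with an incubation of 3 h, a time that the labels give for shikonin only. The samples carry numbers, but no label says whether each was a culture of its own, and the p-values given here thus cover only the variation among these arrays, which may be technical.

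Values are linear signals as deposited, and a log2 change is the mean of shikonin minus the mean of DMSO on the log2(signal + 9.94) scale. Median signals of the arrays ran from 60.5 to 63.7. A signal under the 40th percentile of its array (34.8 to 37.4) was taken as not shown to exceed background. Of 13 measured monocytic and myeloid markers, 11 lay above that level on every array, among them LYZ, ELANE and CTSG, while CD14 and FCGR1A lay below it on every array. By limma 0 of the 11 that were tested were called, beside 6.67% of all genes tested called lower and 5.00% called higher. An unadjusted p under 0.05 was found for 1 of the 11, beside 24.4% of all probe sets tested. So few markers do not show that cell identity was unchanged. Of 5 T cell markers, CD3G and CD8A were below it on every array, CD3D on 1 and CD3E on 2, and CD2 was above it on all 4 (41.0 to 62.2). Of 4 measured B cell markers, CD79A and PAX5 were above it on all 4, whereas MS4A1 was below it on 2 and CD79B on 3. Of 3 measured erythroid and 5 epithelial markers, HBB (84.1 to 134) and KRT8 (45.6 to 100) were above it on all 4. The others were each below it on at least 2. A signal above this level thus does not by itself mark a cell type. With bulk RNA, fewer cells that express a gene and less RNA per cell cannot be told apart.

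AP-1 is a dimer of basic leucine zipper proteins that binds DNA through the basic region of each partner. FOS, FOSB, FOSL1 and FOSL2 need a JUN partner to bind, whereas JUN, JUNB and JUND can also pair among themselves. BATF, BATF3 and JDP2 are small relatives without the activation domains of FOS that compete for JUN partners. FOS, FOSB and JUNB are classical immediate early genes, which are transcribed within minutes of a growth or stress signal, and in monocytic cells AP-1 takes part in differentiation and in the induction of inflammatory genes.

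Most of the FOS side of the family and JUNB were lower after shikonin, JUN was not, and BATF was higher. Represented by their brightest probe sets, FOSB, FOSL2, JUNB, FOSL1 and JDP2 were called lower (5 of 10 genes, against 6.67% of all 13559 genes tested), and BATF was called higher (1 of 10, against 5.00%). FOS, JUN, JUND and BATF3 were not called. A call is an adjusted p under 0.05 in limma, adjusted by Benjamini-Hochberg over the 32768 probe sets tested. The median log2 change of the 10 genes was -0.58, and that of all genes tested was 0.00. The members were chosen with earlier results of these data known, so these comparisons with all genes are descriptions.

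All 21 probe sets passed the filter on dim signals. Of these, 7 were called lower, against 5.27% of all probe sets tested, and 1 was called higher, against 3.92%. Bright probe sets were called more often: in the brighter 50% of those tested, 9.47% were called lower and 6.62% higher, and of the 13 members in that range 5 and 1 were. Without regard to the test, both shikonin arrays lay below both DMSO arrays in 11 of the 21, against 26.1% of all probe sets tested. They lay above both in 2 of the 21, against 27.0% of all. FOSL2 alone holds 5 of the 21, all 5 among these 11 and 3 among the 7 called lower. The probe sets are thus not separate observations. With 2 arrays a group, the calls rest on an error model in which the variance follows the signal. When limma was given 1 variance prior for all signals instead, it called no member (adjusted p 0.147 to 0.189 for the 8 otherwise called), although 9 of the 21 had an unadjusted p under 0.05, as had 18.2% of all probe sets tested in that fit.

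**Figure D1:**
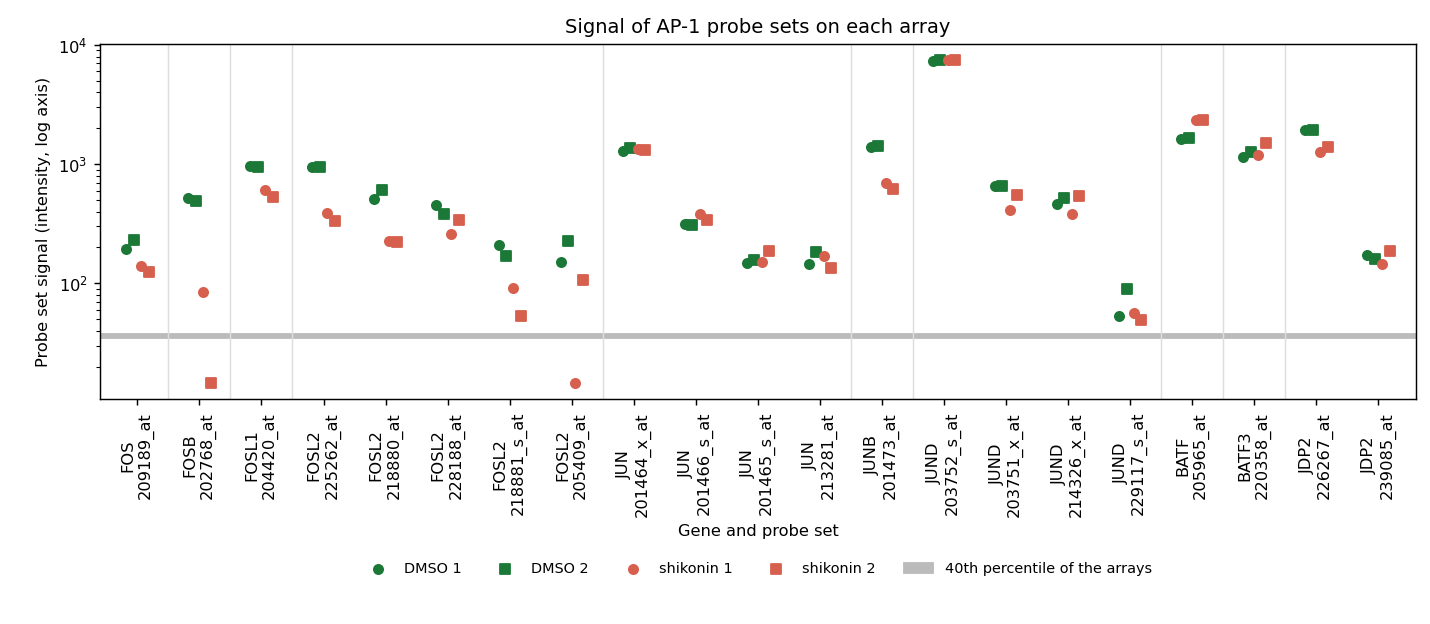
Signal of each AP-1 probe set (x axis, grouped by gene) on each array (y axis, intensity on a log axis); circles are replicate 1 and squares replicate 2, green is DMSO and red shikonin, and the grey band spans the 40th percentiles of the arrays, 34.8 to 37.4. The shikonin points of FOSB, FOSL1, JUNB and the brightest FOSL2 probe set lie below the DMSO points, those of BATF above, and those of JUN's brightest probe set among them; a shikonin point lies under the band for FOSB and for 1 FOSL2 probe set.

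FOSB, an immediate early FOS protein also known for a truncated splice form, had the largest estimate among the brightest probe sets of the 10 genes. Its signal on probe set 202768_at was 516 and 492 in DMSO and 84.5 and 14.6 after shikonin. Both shikonin arrays lay far below both DMSO arrays, but they differed widely from each other, and the second lay under the 40th percentile of its array. The log2 change was -3.42 (SE 0.50, 95% interval -4.54 to -2.29, adjusted p = 0.00389), 10.7-fold lower. Its size depends on the array and the pseudocount: it was -4.39 without shikonin 1, -2.44 without shikonin 2 and -2.79 with the pseudocount set at the 40th percentile of all values. With that pseudocount FOSB was called. The fits without a shikonin array hold no spread between shikonin arrays, so a call there would not bear on their difference. Over all 21 probe sets the order depends on the array, since without shikonin 2 the FOSL2 probe set 205409_at (-3.00) passed FOSB.

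FOS, the founding member, was also lower on both shikonin arrays but was not called. Probe set 209189_at read 194 and 230 in DMSO and 140 and 124 after shikonin, without overlap. The log2 change was -0.64 (SE 0.20, 95% interval -1.10 to -0.18, adjusted p = 0.0844). No alternative setting brought FOS under the threshold (adjusted p 0.0600 to 0.306). The signal of FOS was modest, near the 64th percentile of the array on average. FOSB, which was called, was brighter than FOS in DMSO, at 516 and 492. Its mean percentile, near the 58th, includes its low shikonin values. Whether signal bears on the missing call of FOS was not tested.

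FOSL1, which encodes the FOS-related protein FRA-1, fell. Its probe set 204420_at read 971 and 942 in DMSO and 607 and 527 after shikonin, so the groups did not overlap. It was 1.68-fold lower (log2 change -0.75, SE 0.11, adjusted p = 0.00329).

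FOSL2, which encodes FRA-2, was read by 5 probe sets, and all 5 were lower on both shikonin arrays than on both DMSO arrays. The brightest, 225262_at, went from 944 and 939 to 389 and 334, which is 2.57-fold lower (log2 change -1.36, SE 0.12, adjusted p = 2.18e-04). The next, 218880_at, went from 505 and 609 to 226 and 221, 2.42-fold lower (log2 change -1.27, SE 0.14, adjusted p = 0.00101). These 2 agree within their errors. Over the alternative settings the first ran from -1.47 to -1.25 and the second from -1.41 to -1.14.

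The other 3 FOSL2 probe sets were less firm. Probe set 218881_s_at went from 209 and 171 to 91.4 and 53.5 and was called (log2 change -1.31, SE 0.29, adjusted p = 0.0252), but not without DMSO 1 (0.118), without shikonin 2 (0.0774) or without the filter on dim signals (0.0891). Probe set 205409_at went from 152 and 227 to 14.5 and 106, with the lowest value under the 40th percentile of its array. Its log2 change of -1.87 (SE 0.61) was not called (adjusted p = 0.0909), and it was -0.75 without shikonin 1 and -3.00 without shikonin 2. Probe set 228188_at had the smallest difference of the 5, from 459 and 381 to 262 and 342 (log2 change -0.47, SE 0.17, adjusted p = 0.12).

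The JUN subfamily, which supplies the partners that FOS proteins need, did not move together. JUNB, the JUN protein that is induced early and often counters JUN, fell from 1402 and 1431 in DMSO to 699 and 617 after shikonin. The arrays of the groups were far apart, and the change was 2.14-fold lower (log2 change -1.10, SE 0.10, 95% interval -1.31 to -0.88, adjusted p = 2.57e-04).

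JUN itself, the transcriptionally strong partner, was read by 4 probe sets, and none was called. The brightest, 201464_x_at, read 1282 and 1367 in DMSO and 1338 and 1323 after shikonin, with the shikonin values between the DMSO values. Its log2 change was 0.01 with a 95% interval of -0.17 to 0.19, so a change of the size of JUNB lay outside the interval. The name of a probe set ending in _x_at marks oligonucleotides that may bind other transcripts too. The other 3 changed by -0.10 to 0.20. On 201466_s_at both shikonin arrays (380 and 342) lay above both DMSO arrays (315 and 310), which did not pass (log2 change 0.20, SE 0.14, adjusted p = 0.422). The difference in change between JUNB and JUN was not tested as such.

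JUND, the JUN protein that most cells express steadily, had 4 probe sets and no call. The brightest, 203752_s_at, was nearly flat at 7303 and 7503 in DMSO and 7459 and 7477 after shikonin (log2 change 0.01, 95% interval -0.11 to 0.13). The other JUND probe sets had estimates below 0. On 203751_x_at the signal was 662 and 656 in DMSO and 410 and 554 after shikonin, without overlap and without a call (log2 change -0.46, SE 0.14, adjusted p = 0.0855). The log2 change of that probe set was -0.67 without shikonin 2 and -0.24 without shikonin 1. The remaining pair changed by -0.11 and -0.34, with overlapping arrays.

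**Figure D2:**
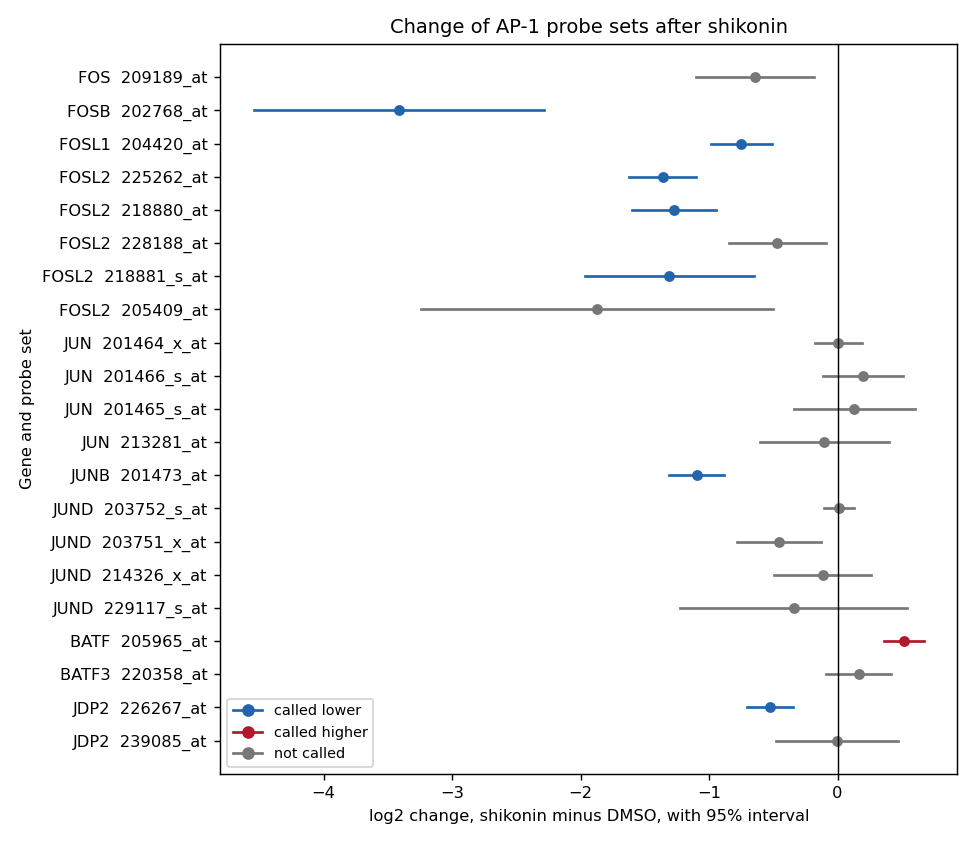
Log2 change of each AP-1 probe set (y axis) between shikonin and DMSO (x axis); points are limma estimates from 2 arrays a group, lines are 95% intervals, and colours mark the calls at an adjusted p under 0.05. The 7 probe sets called lower belong to FOSB, FOSL1, FOSL2, JUNB and JDP2, the 1 called higher is that of BATF, and the intervals of all 4 JUN probe sets include 0.

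Among the small bZIP relatives, BATF, which pairs with JUN proteins and binds composite sites with IRF4 or IRF8, was the member that rose. Its probe set 205965_at read 1636 and 1647 in DMSO and 2353 and 2353 after shikonin. The spread within each group was far smaller than the gap between groups. BATF was 1.43-fold higher (log2 change 0.52, SE 0.07, 95% interval 0.36 to 0.67, adjusted p = 0.00240). Its change ran from 0.51 to 0.54 over the alternative settings.

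BATF3, known for its role in the development of cross-presenting dendritic cells, was not called. Its probe set 220358_at read 1148 and 1253 in DMSO and 1201 and 1505 after shikonin, and the groups overlapped (log2 change 0.16, 95% interval -0.09 to 0.42, adjusted p = 0.427). Changes as large as that of BATF lay outside the interval.

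JDP2, the JUN dimerization protein that represses AP-1 sites, fell on its brighter probe set. On 226267_at the signal was 1935 and 1925 in DMSO and 1276 and 1402 after shikonin, without overlap, 1.44-fold lower (log2 change -0.53, SE 0.08, adjusted p = 0.00442). The dimmer probe set, 239085_at, read 171 and 159 in DMSO and 145 and 185 after shikonin. There the arrays overlapped and the log2 change was -0.01 (95% interval -0.48 to 0.47), so the fall of JDP2 rests on 1 of its 2 probe sets.

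FOS, JDP2 and BATF are consecutive protein-coding genes on chromosome 14 in the RefSeq annotation of GRCh38.p14, in that order of coordinates. Along this stretch the log2 changes of the brightest probe sets were -0.64, -0.53 and 0.52, so genes next to each other differed in direction. The nearest protein-coding genes on either side of the 10 members included 16 tested genes outside the family. By limma 0 of these 16 were called, beside 6.67% of all genes tested called lower and 5.00% called higher. Of the 16, 2 had an unadjusted p under 0.05, beside 24.4% of all probe sets tested. With so few genes, these counts do not set the neighbours apart from the array as a whole. TMED10 beside FOS changed by 0.19 (adjusted p = 0.0597), ERCC1 beside FOSB by 0.38 (0.0927), PRDX2 beside JUNB by 0.10 (0.372) and BABAM2 beside FOSL2 by -0.06 (0.664).

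The promoters of the FOS genes are shown here because FOSB and FOSL2 fell, FOS lay lower without a call, and the windows of all 3 hold the same letters at nearly the same place. They are set beside those of JUN, which was not called, and of BATF, which rose. RefSeq windows of GRCh38.p14, from 250 bases before a gene's start to 50 after it, were found for 8 of the 10 members, not for FOSL1 and BATF3. The windows are FOS at chr14:75278578-75278877 (plus strand), FOSB at chr19:45467746-45468045 (plus strand), FOSL2 at chr2:28392608-28392907 (plus strand), JUN at chr1:58783998-58784297 (minus strand) and BATF at chr14:75522219-75522518 (plus strand), each written along its gene. Capitals mark matches to the motifs searched.
FOS: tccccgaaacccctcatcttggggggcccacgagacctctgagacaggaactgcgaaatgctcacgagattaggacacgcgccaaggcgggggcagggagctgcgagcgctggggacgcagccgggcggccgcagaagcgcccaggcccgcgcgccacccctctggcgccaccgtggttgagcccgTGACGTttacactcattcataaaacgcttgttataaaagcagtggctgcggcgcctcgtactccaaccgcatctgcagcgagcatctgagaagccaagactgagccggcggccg
FOSB: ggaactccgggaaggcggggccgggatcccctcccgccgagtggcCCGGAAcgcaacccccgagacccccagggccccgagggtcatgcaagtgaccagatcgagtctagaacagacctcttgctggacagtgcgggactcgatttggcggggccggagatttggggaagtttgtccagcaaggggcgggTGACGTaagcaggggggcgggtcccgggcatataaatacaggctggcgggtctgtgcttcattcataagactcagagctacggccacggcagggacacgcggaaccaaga
FOSL2: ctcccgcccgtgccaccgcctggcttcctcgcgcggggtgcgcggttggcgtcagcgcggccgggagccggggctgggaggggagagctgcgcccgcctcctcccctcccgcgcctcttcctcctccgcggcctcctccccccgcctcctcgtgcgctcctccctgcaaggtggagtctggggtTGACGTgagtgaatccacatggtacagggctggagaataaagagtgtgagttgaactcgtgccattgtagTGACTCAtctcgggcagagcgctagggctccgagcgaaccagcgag
JUN: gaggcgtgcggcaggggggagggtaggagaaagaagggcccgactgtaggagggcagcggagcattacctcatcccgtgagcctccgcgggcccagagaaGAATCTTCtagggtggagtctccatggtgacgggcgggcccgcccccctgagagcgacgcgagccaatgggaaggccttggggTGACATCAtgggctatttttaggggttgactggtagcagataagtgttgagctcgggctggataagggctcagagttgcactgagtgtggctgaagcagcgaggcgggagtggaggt
BATF: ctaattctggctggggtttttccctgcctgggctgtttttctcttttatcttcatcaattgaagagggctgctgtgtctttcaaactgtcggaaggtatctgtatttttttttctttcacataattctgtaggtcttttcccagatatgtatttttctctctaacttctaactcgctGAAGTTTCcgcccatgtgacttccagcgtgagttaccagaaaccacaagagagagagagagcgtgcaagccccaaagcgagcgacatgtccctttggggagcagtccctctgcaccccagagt

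The letters TGACGT, the core of the cyclic AMP response element that CREB and ATF proteins bind, began 64 bases before the start in FOS, 60 in FOSB and 66 in FOSL2, on the gene's strand. Of all 35116 promoter windows, 7.98% hold TGACGT on either strand, and of the 10 member windows 5 do. These 5 include that of JUND, whose brightest probe set was nearly flat. The window of JUNB, which was called lower, does not hold it. JUN has TGACATCA beginning 67 bases before its start, a match to TGACNTCA, which 7.72% of windows hold. JUND has TGACGTCA at 200 bases before its start, which matches both motifs, and a further TGACGT on the other strand, and 1 of the 3 JDP2 windows has TGACGT. The heat shock dyad GAANNTTC, held by 6.77% of windows, began 73 bases before the start of BATF and 150 before that of JUN.

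Further motifs were searched on both strands. The AP-1 site TGACTCA (4.95% of windows) was found in FOSL2 alone, beginning 4 bases after the start, and the ETS core CCGGAA (17.2%) in FOSB alone. TGACNNNGC, the core that NRF2 binds (13.3%), was found only in JUND, where 1 of its matches overlaps TGACGT. The EGR site GCGTGGGCG (0.795%) and the CArG box that SRF binds (1.29%) were in none of the 10 member windows, and JUNB held no match to any of the 8 motifs. The windows reach only 250 bases before the start, so sites further out, in FOS or any other member, were not searched. These matches describe letters, not binding.

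Genes with patterns most like those of FOS and FOSB were found by the Euclidean distance of the 4 log2 values, each gene centred on its own mean. The 5 nearest to FOS among 13559 genes were MBTPS2, KLHL8, ZNF286A, UBL7-DT and ABCC2, at distances of 0.05 to 0.07. MBTPS2, a protease of the Golgi membrane, went from 2382 and 2743 to 1787 and 1536. The nearest to FOSB was EGR3, an immediate early zinc finger factor, which went from 1912 and 1716 in DMSO to 122 and 108 after shikonin and lay at a distance of 1.34. The next, TEKT2, APOC1, GDAP1L1 and KIAA1328, lay at 1.75 to 1.84, changed by -1.58 to -1.72 and were not called. All 4 were below the 40th percentile on shikonin 2, as FOSB was, and TEKT2 and GDAP1L1 also on shikonin 1, so these distances rest partly on signals not shown to exceed background. The same holds for ZNF286A on shikonin 2 in the comparison with FOS. With 4 arrays these likenesses are descriptions.

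**Figure D3:**
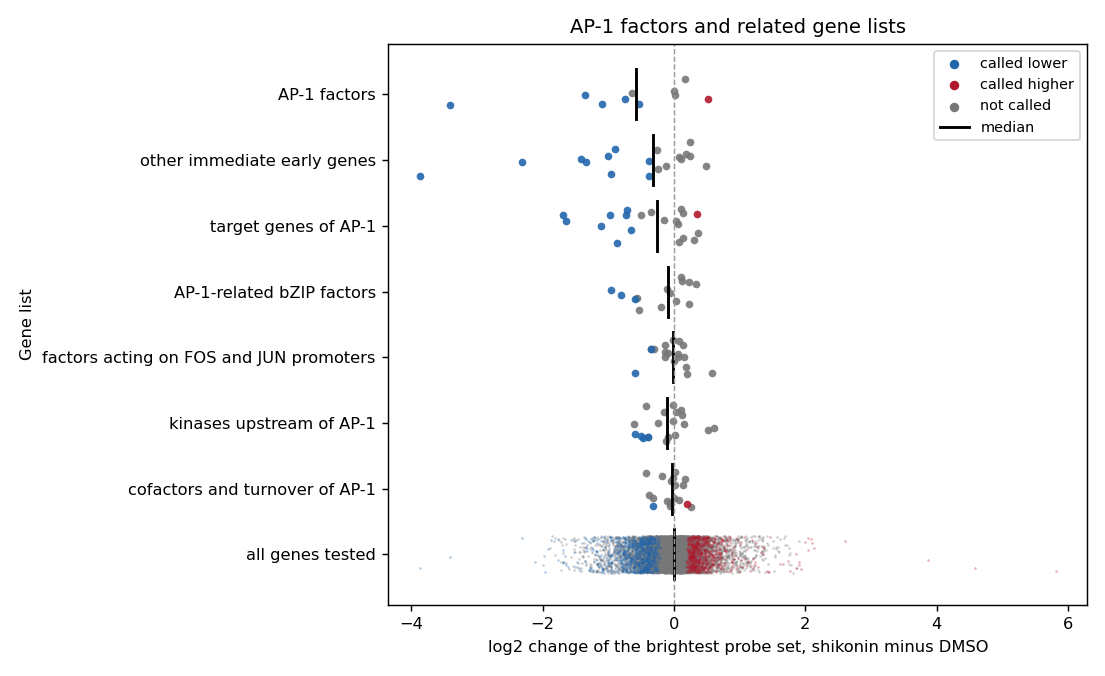
Log2 change between shikonin and DMSO (x axis) of the brightest probe set of each gene, for the AP-1 factors, 6 related gene lists and all 13559 genes tested (y axis); each point is a gene, black bars are medians, and colours mark the calls. The medians are -0.58 for the AP-1 factors, -0.32 for the other immediate early genes and -0.25 for the AP-1 target genes, and the remaining lists lie near 0, at -0.10 to -0.01.

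Lists of genes around AP-1 were read in the same fit, each gene by its brightest probe set. Over the 6 lists 27 of 108 tested genes were called lower and 2 higher, beside 6.67% and 5.00% of all genes. The lists were chosen with earlier results of these data known, so an excess over these shares may come from the choice. Of 18 other immediate early genes tested, 9 were called lower and none higher, with a median log2 change of -0.32. At an unadjusted p under 0.05 these counts were 9 and 2. That threshold was passed by 24.4% of all probe sets tested, both directions together. EGR3 was 14.6-fold lower (adjusted p = 5.08e-07). EGR1, a zinc finger factor, was 4.99-fold lower, KLF10, a repressor induced by TGF-beta, 2.53-fold lower, and MCL1, which protects cells from apoptosis, 1.94-fold lower. Without probe sets ending in _x_at or _s_at, 4 were called lower.

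Of 20 tested target genes of AP-1, 8 were called lower and 1 higher (10 and 1 at an unadjusted p under 0.05), with a median of -0.25. HBEGF, a ligand of the EGF receptor, went from 898 and 831 to 271 and 249 (3.24-fold lower, adjusted p = 8.06e-05). PLAUR, the urokinase receptor, went from 2757 and 2634 to 1257 and 1215 (2.17-fold lower, adjusted p = 4.72e-05). The cytokine TNF was 3.13-fold lower, and the vascular growth factor VEGFA was 1.57-fold lower. The member called higher was TGFB1 (log2 change 0.35), named here after its value was seen, and it lost the call without DMSO 1 (adjusted p = 0.0559) or shikonin 2 (0.101). Its other probe set had the opposite sign (-0.61, adjusted p = 0.169), and with the mean over each gene's probe sets none of the list was called higher. TNF, PLAUR, VEGFA and TGFB1 were represented by _s_at probe sets, and when probe sets ending in _x_at or _s_at were left out, 2 of the list were called lower and none higher.

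Of 14 tested bZIP factors related to AP-1, 3 were called lower and none higher (3 and 1 at an unadjusted p under 0.05), with a median of -0.08. MAFF, a small MAF protein without an activation domain, went from 545 and 500 to 265 and 264 (1.94-fold lower, adjusted p = 0.00262), while its other probe set changed by -0.28 without a call. NFE2L2, the gene of the oxidative stress factor NRF2, was 1.51-fold lower (adjusted p = 7.58e-04). ATF3, a stress-induced partner of JUN, was 1.75-fold lower (adjusted p = 0.0266). That call did not hold when DMSO 1 (0.0640), DMSO 2 (0.0957) or shikonin 1 (0.101) was left out or without the filter on dim signals (0.0708), and the other ATF3 probe sets, at 0.54 and -0.11, were not called.

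Of 18 tested factors that act on the FOS and JUN promoters, 2 were called lower and none higher (2 and 2 at an unadjusted p under 0.05), with a median of -0.01. SRF, which binds the serum response element of FOS, went from 1354 and 1411 to 904 and 930 (log2 change -0.59, adjusted p = 0.00327), and its other probe set changed by -0.29 without a call. STAT3 was 1.27-fold lower and lost the call without DMSO 1 (adjusted p = 0.0509) or shikonin 2 (0.0711). ELK1, ELK3 and ELK4, the ETS partners of SRF, and CREB1 were not called, with log2 changes of -0.13, 0.14, 0.19 and 0.08; they are named here after their values were seen.

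Of 20 tested kinases upstream of AP-1, 4 were called lower and none higher (7 and 0 at an unadjusted p under 0.05), with a median of -0.10. RPS6KA5, the kinase MSK1 that phosphorylates CREB, was 1.51-fold lower, MAP2K5, the activator of ERK5, 1.39-fold, MAP3K5, the stress kinase ASK1, 1.42-fold, and MAPK9, a JUN N-terminal kinase, 1.32-fold. Of 18 cofactors and turnover factors, 1 was called in each direction (4 lower and 2 higher at an unadjusted p under 0.05), with a median of -0.03. IRF8, a partner of BATF, was 1.25-fold lower and lost the call without DMSO 1 (adjusted p = 0.0833) or shikonin 1 (0.118). TXN, thioredoxin, was 1.15-fold higher, but was no longer called when any array was left out (adjusted p 0.0596 to 0.158), with quantile normalization (0.118) or without the filter on dim signals (0.110).

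Many of the called genes named from these lists have further probe sets. For 16 of them 31 others were tested, of which 14 were called in the same direction and 17 were not called. Of the 17, 4 had the opposite sign, those of TGFB1 and ATF3 given above, 1 of PLAUR (0.34, adjusted p = 0.226) and 1 of MAP2K5 (1.72, adjusted p = 0.149). The other probe set of MAP3K5 changed by -0.18 (adjusted p = 0.324). Genes not called by their brightest probe set are outside this count. Some of them had another probe set called lower, such as MEF2A, CD44 and PLAU, named here after their values were seen. The list counts thus depend on the choice of probe set.

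**Figure D4:**
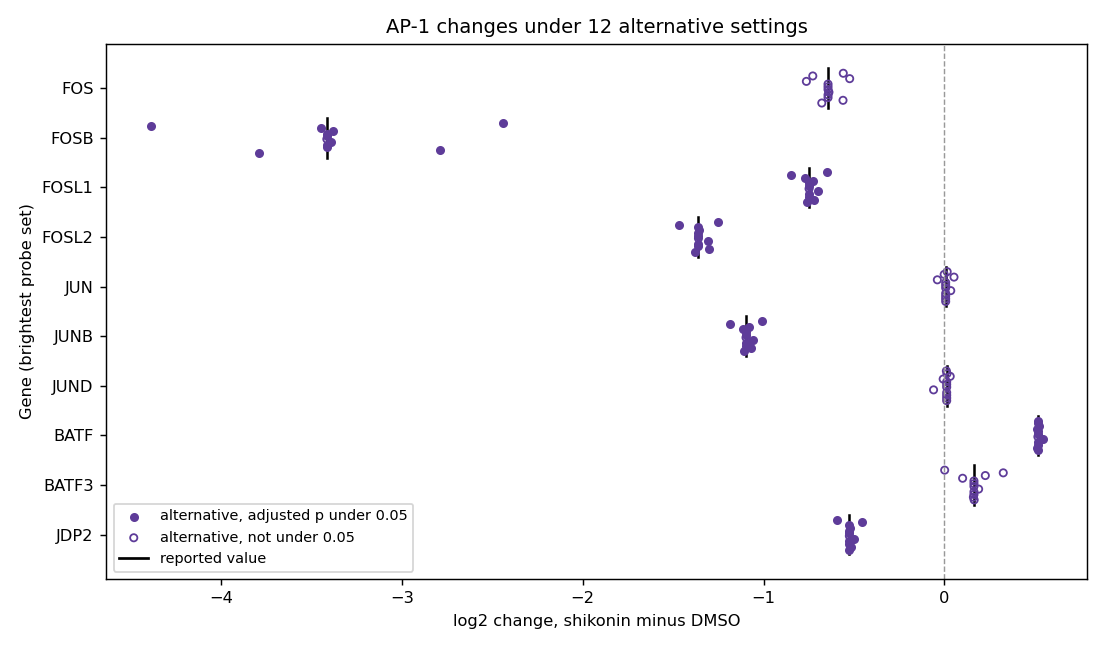
Log2 change between shikonin and DMSO (x axis) of the brightest probe set of each AP-1 gene (y axis) under 12 alternative settings (points) and as reported (black bars); filled points had an adjusted p under 0.05. FOSB ranged from -4.39 to -2.44, FOSL2 from -1.47 to -1.25 and BATF from 0.51 to 0.54. Each of the 6 called genes lost its call only with the single variance prior. The settings without 1 array hold no spread within that array's group, so their calls do not test it.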

How the data were processed

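Total RNA was labelled with biotin after 3'-biased amplification and hybridized to Affymetrix U133 Plus 2.0 arrays, per the labels' protocols. The authors' deposited values are linear probe set intensities; the name of the software that summarised the probes was not given in the sources used here. They had been scaled to a common level: the mean without the lowest and highest 2% was 500.1 on all 4 arrays, so changes are relative to the rest of the array.

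Intensities were converted to log2(signal + 9.94), the 20th percentile of all values. Array medians lay within 0.066 (log2), so no further normalization was applied. The 62 control probe sets and the dimmest 40% were left out, which kept 32768 across all genes. Two-sided tests used limma 3.58.1 in R 4.3.3 (lmFit, eBayes with a trend), with 2 residual degrees of freedom. The procedure was also run on simulated data, which does not show that its error model suits these arrays. Symbols came from the platform annotation: 41097 probe sets had 1 symbol, 1801 several and 11777 none. Names and neighbours came from RefSeq (GRCh38.p14), which held 41043 of the single-symbol probe sets.

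The genes named by rule were all members, up to 4 called genes per list by p, and the 5 genes most like FOS and FOSB. Markers, the neighbours TMED10, ERCC1, PRDX2 and BABAM2, and genes marked as named after their values were seen fell outside this rule. Of 129 listed genes 108 were tested. The members and lists were chosen with earlier results of these data known. Alternatives were 2 pseudocounts, 2 filters, quantile normalization, 2 variance priors, a replicate block, gene means, probe sets without _x_at and _s_at, and leaving out each array.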

Additional observations from a re-analysis of the deposited data

How the results depend on the processing

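Alternatives kept most member values on the same side of the threshold: of 251 values of the 21 AP-1 probe sets, 226 kept direction and side, 11 lost and 4 gained a call, and 10 changed sign, none of which was called. With a single variance prior limma called 0 AP-1 probe sets, 0 genes of the 6 lists and 0 of all probe sets in either direction, although 5970 probe sets had an unadjusted p under 0.05. Without the filter 1111 probe sets were called lower and 638 higher, and 6 AP-1 probe sets were called lower in place of 7. Listed genes called higher (2 as reported) numbered 1 without the filter, with quantile normalization or with gene means, and 0 without _x_at and _s_at probe sets, when 13 were called lower. Leaving out each array gave 1102 to 1242 probe sets called lower, 575 to 933 higher, and 0 to 2 listed genes higher. These fits hold no spread within the group that lost an array, so their calls do not test that spread. The log2 change of BATF in them ran from 0.51 to 0.52.

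With the replicate number as a block, 2660 probe sets were called lower and 2381 higher, and AP-1 probe sets numbered 9 and 1. Deviations of same-numbered arrays from their group means were correlated at 0.02, so the numbers were not taken as pairs.

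The sign changes came in probe sets that were not called. Leaving out each array, JUN ranged from -0.039 to 0.053 (201464_x_at), -0.021 to 0.28 (201465_s_at) and -0.26 to 0.062 (213281_at). JUND ranged from -0.0068 to 0.032 (203752_s_at, and -0.060 with quantile normalization) and from -0.36 to 0.14 (214326_x_at), and JDP2 from -0.17 to 0.16 (239085_at). The cause was not tested. All of these values rest on 4 arrays, which limits their precision.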
